A study of Mus musculus with 28 samples.

Results

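Sertoli cells of stages IV-VI of the seminiferous cycle (group C, libraries C1 and C2) were compared with Sertoli cells of the other stages. The comparison used the 10 sorted libraries of a series of 28. It set group C against the mean of the 4 other groups, averaged on the log2 scale. These were B (stages I-III), D (stages VII-VIII), E (stages IX-X) and A (stages XI-XII), with 2 libraries in each group. Groups with very low levels weigh more in such a mean than in a mean of levels, so folds can differ from ratios of mean levels. Of 43280 gene rows, 14331 passed a filter on low counts and were tested. All 10 libraries were labelled as RFP heterozygotes positive for Amh-Cre, in which the red reporter is switched on by a Cre driven by the promoter of Amh, a Sertoli cell gene, and RFP-positive cells were sorted from fresh testes. All animals had received WIN 18,446, a blocker of retinoic acid synthesis, for 7 days and an injection of retinoic acid on the next day, and were killed 42 to 50 days after it. There was no group without this treatment, so every level below belongs to synchronised testes. The strain was given as C57BL/6 x 129s4/SvJae for 9 libraries and as C57BL/6 x Amh-Cre background for A1. The stage of a group is the stage most enriched in the testes used, so that each library could hold cells of neighbouring stages. Animal numbers, pooling and separate cultures were not given in the labels, and p-values measure the spread between these libraries only. Beside them, 18 libraries of whole testis from NANOS2 KO mice on the CD1 background, which had the same treatment and have no germ cells, were used for levels without a test.

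Sertoli cells are the somatic cells of the seminiferous tubule that hold and feed germ cells of all ages and build the junctions of the blood-testis barrier. The surrounding germ cells pass through a fixed series of associations, the stages, and Sertoli cells change their gene expression with them under the influence of androgen, follicle-stimulating hormone and retinoic acid. In the middle stages, elongated spermatids lie deep in the Sertoli cell before they are moved to the lumen and released at stage VIII.

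The libraries held 1901743 to 5279746 counts, with 2757876 in C1 and 3282315 in C2, so that 3 counts equalled 0.568 to 1.58 CPM, counts scaled to the library total. Levels of single genes below are CPM with the library totals adjusted by the TMM method, and sums over marker lists are CPM on the plain totals. The 13 protein-coding genes of the mitochondrial genome took 4.21% of the counts of C1 and 6.48% of those of C2, within the 4.04 to 11.8% of all 10 libraries. The label Sertoli held in group C: the 29 genes of a Sertoli core list summed to 12076 CPM in C1 and 17495 CPM in C2, against 11970 to 16375 CPM in the 8 others, and none of the 29 was at 0 in C. RNA of germ cells was present in every library, with 17 markers of elongating spermatids at 10288 and 15930 CPM in group C and 4157 to 21404 CPM in the others.

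C1 and C2 stood further apart than the libraries of any other group. Over the 500 most variable genes their root mean square difference in log2 CPM was 1.72, against 0.67 to 1.40 for the pairs of the 4 other groups. C1 was nearest to B2, at 1.27, and lay 2.51 and 2.43 from D1 and D2. C2 was nearest to D2, at 1.19, then D1, at 1.33, and lay 1.86 from B2. C1 was thus nearer to a library of the preceding stages than to C2, and C2 nearer to both libraries of the following stages than to C1. Every count of calls, and every named call against the mean of the other groups, was recomputed with each library left out. Those named calls that did not pass are given as lost beside the genes. Named calls against a single group were not followed in this way, and only their counts were.

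**Figure D1:**
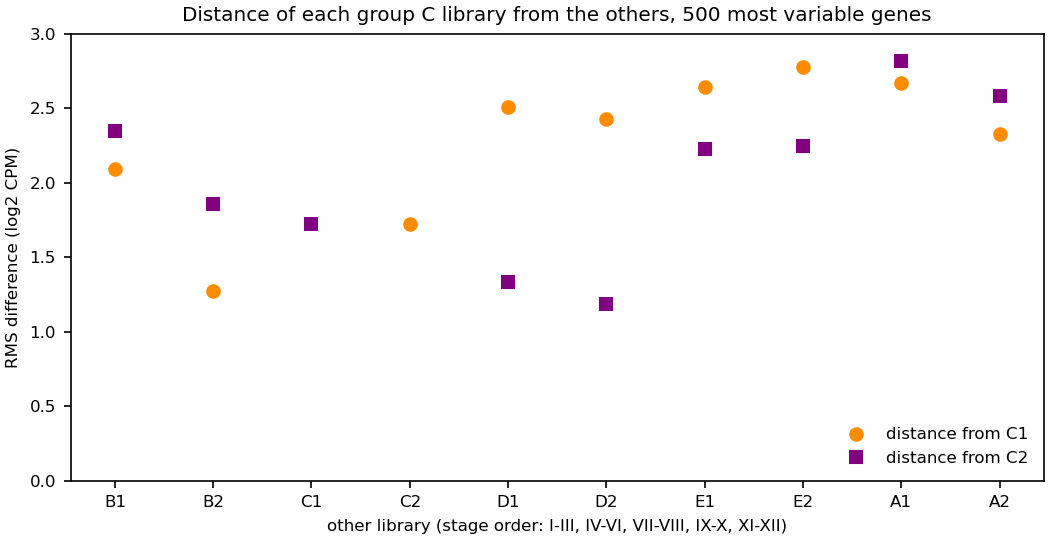
Root mean square difference in log2 CPM (y axis, over the 500 most variable genes) of C1 (orange circles) and C2 (purple squares) from each other library (x axis, in stage order). C1 sits lowest over B2 (1.27) and C2 lowest over D2 (1.19), both below the distance of 1.72 between C1 and C2.

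Group C differed from the mean of the other groups in 381 of 14331 genes (2.66%) at a Benjamini-Hochberg adjusted p under 0.05 in edgeR's quasi-likelihood test. Of these, 280 (1.95%) were higher and 101 (0.705%) lower, and 251 and 95 of them by 2-fold or more against the log2-scale mean. The median log2 fold change of all genes tested was 0.03. Among the 280 higher genes, 113 had both C libraries above all 8 others, a pattern seen in 461 genes tested (3.22%). Among the 101 lower genes, 75 had both C libraries below all 8 others, as did 448 genes tested (3.13%). The calls rested on both C libraries: without C1, 156 genes were higher and 5 lower, and without C2, 111 were higher and 126 lower. Leaving out A2 gave 598 calls, D1 or D2 243 and 237, and E1 or E2 176 and 175. With the 8 other libraries as 1 group, whose stage differences then enter the spread, 0 genes passed in edgeR and 1308 had an unadjusted p under 0.05. DESeq2 called 649 genes (357 higher, 292 lower) and limma 380 (205 and 175). Of the 280 higher genes 127 passed without C1, 96 without C2 and 54 in both fits, and of the 101 lower genes 5, 35 and 3 did.

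**Figure D2:**
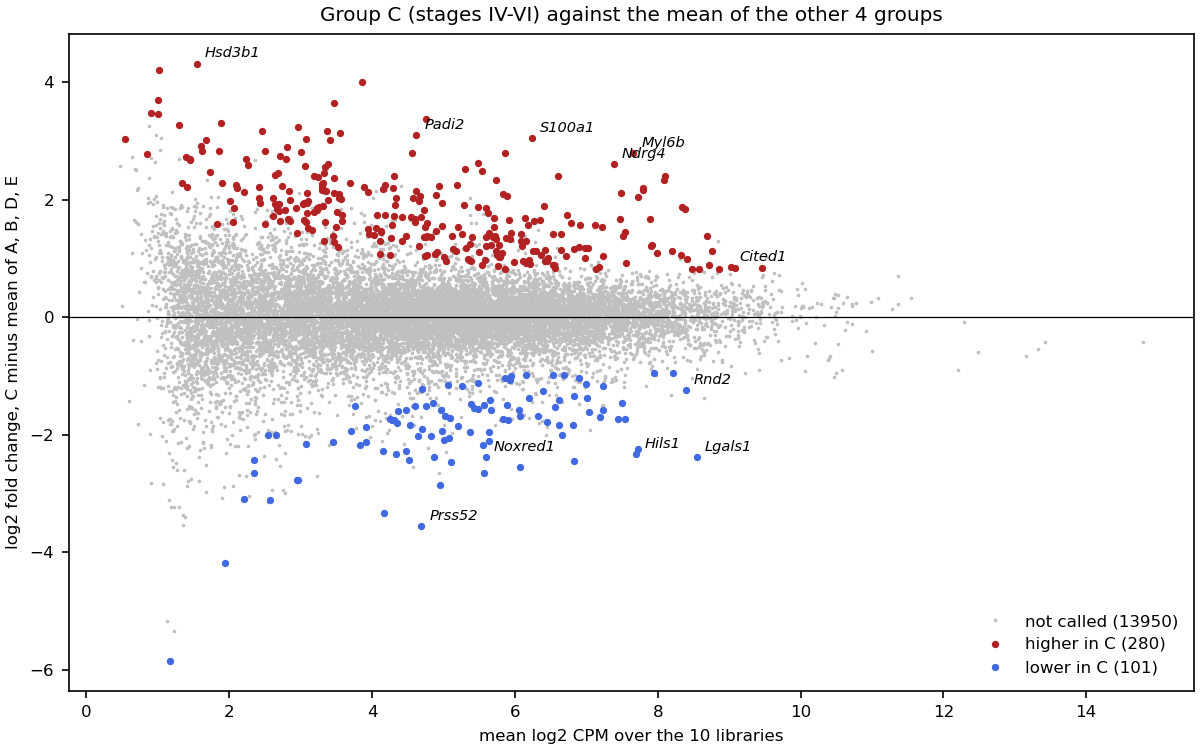
Log2 fold change of group C against the mean of groups A, B, D and E (y axis) by mean log2 CPM over the 10 libraries (x axis), 1 point per gene tested. The 280 genes called higher (red) and the 101 called lower (blue) lie on both sides of 0, and some genes of the text are named.

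Group C was most often followed by group D among the genes that rose. By group means, C was the highest group in 197 of the 280 genes and D the next in 131 of these, while D itself was highest in 79. Group B followed C in 65 genes and was highest in 4, among them Alas2, Cercam and Slc16a4, and group E followed C in 1 predicted gene. Cercam and Slc16a4 are named because the count is small, and both were lost without C1 or E2, Slc16a4 also without D2 or E1. The genes that fell had their lowest mean in C in 96 of 101 cases and in D in the other 5, Prss58 among them. Their highest mean was in E in 55 cases and in A in 44, and in 1 case each in B and in D (Gsta3). That C was mostly the highest or the lowest group follows largely from the calls themselves. The ranks of the other groups are given without their shares over all genes tested.

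Padi2, S100a1 and Adam8 had been given as markers of group C. Padi2 encodes a peptidylarginine deiminase, an enzyme that turns arginine in proteins into citrulline. It stood at 43.9 CPM in C1 and 78.4 CPM in C2, at 49.0 and 36.1 CPM in D1 and D2, at 6.42 and 19.8 CPM in B1 and B2, and at 0.815 to 5.86 CPM in the libraries of E and A. Both C libraries were above B, E and A and overlapped with D. Its log2 fold change was 3.10 (SE 0.35, edgeR adjusted p = 0.000739). In CPM, its mean in C was 4.01 times the mean of the 4 other group means. S100a1 encodes a calcium-binding protein of the S100 family. It stood at 129 and 224 CPM in C1 and C2 and at 139 and 172 CPM in D1 and D2, and lay between 2.44 and 23.0 CPM in the other 6 libraries. Groups C and D overlapped and shared no range with the rest (log2 fold change 3.04, SE 0.23, edgeR adjusted p = 8.32e-05). Adam8, a membrane-bound metalloprotease, reached 46.3 and 61.9 CPM in C1 and C2 and 55.3 and 35.6 CPM in D1 and D2, with 9.63 and 15.9 CPM in B1 and B2 and 0.782 to 6.06 CPM in E and A. Again C overlapped with D only (log2 fold change 2.79, SE 0.34, edgeR adjusted p = 0.001). All 3 passed in each of the 10 fits that left out 1 library. Against D by itself none of the 3 passed, and the log2 difference of S100a1 there was 0.18 (SE 0.32).

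The promoters of 4 genes are shown because these genes stand for the patterns described here: Padi2 and S100a1 (high in C and D), Ptpn7 (high in B and C) and Noxred1 (low in C). The sequences are the 250 bases before a transcription start, from RefSeq on GRCm38.p6, 5′ to 3′ on the gene's strand. Capitals mark the core of the cAMP response element, TGACG, and an androgen receptor half-site, AGAACA, each searched on both strands, so that a match may read as the reverse complement. Padi2 is at chr4:140906110-140906359 on the plus strand, S100a1 at chr3:90514331-90514580 on the minus strand, Ptpn7 (the second of its starts in the table) at chr1:135133059-135133308 on the plus strand, and Noxred1 at chr12:87238602-87238851 on the minus strand.
Padi2: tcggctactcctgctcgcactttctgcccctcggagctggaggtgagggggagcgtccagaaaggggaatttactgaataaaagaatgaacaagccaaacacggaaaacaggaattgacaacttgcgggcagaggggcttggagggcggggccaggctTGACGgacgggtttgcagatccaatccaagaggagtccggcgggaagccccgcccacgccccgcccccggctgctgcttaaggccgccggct
S100a1: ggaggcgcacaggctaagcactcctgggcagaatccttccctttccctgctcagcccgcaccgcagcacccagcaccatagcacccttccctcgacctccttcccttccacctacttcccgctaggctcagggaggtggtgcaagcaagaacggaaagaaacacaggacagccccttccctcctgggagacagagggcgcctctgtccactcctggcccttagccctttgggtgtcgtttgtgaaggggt
Ptpn7: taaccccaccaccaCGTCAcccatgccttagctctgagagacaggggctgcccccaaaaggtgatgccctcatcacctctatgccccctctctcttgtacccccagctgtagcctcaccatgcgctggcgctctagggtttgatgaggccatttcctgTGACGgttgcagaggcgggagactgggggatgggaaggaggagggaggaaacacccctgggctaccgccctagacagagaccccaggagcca
Noxred1: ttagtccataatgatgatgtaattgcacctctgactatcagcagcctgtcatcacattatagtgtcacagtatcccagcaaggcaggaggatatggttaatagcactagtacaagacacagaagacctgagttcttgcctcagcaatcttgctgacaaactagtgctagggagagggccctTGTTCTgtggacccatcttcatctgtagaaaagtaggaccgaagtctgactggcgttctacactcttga
Padi2 had 1 match to the first motif, whose first base lay 92 bases before the start. Ptpn7 had 2, at 236 bases (on the other strand) and at 92 bases before this start. Noxred1 had 1 match to the second, on the other strand, at 69 bases. S100a1 had no match to any of the 5 motifs searched. Neither had the first start of Ptpn7 or the promoter of Adam8, which are not shown. The other 3 motifs were the nuclear receptor half-site AGGTCA, the site of GATA factors, written AGATAA, and the site of SOX factors, written ACAAAG, all on both strands. Across the promoters of genes that rose, the cAMP element core was in 20.6% of 262, against 25.7% of the 12930 promoters of all tested genes in the table and 14% of the 93 promoters of genes that fell. The androgen receptor half-site was in 9.92%, 11.1% and 16.1% of the same sets. In the same order, the nuclear receptor half-site was in 9.92%, 11.6% and 19.4%. The GATA site was in 8.40%, 5.65% and 10.8%, and the SOX site in 13.7%, 13.1% and 20.4%. Promoters were in the table for 198 of the 280 higher and 73 of the 101 lower genes. These shares are descriptions of letters in a window, without a test.

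The 15 named genes with the largest rises, at a mean of at least 4 log2 CPM, included 12 in which D was the highest group or the next after C, the 3 markers among them. Myl6b, a myosin light chain, was at 422 and 592 CPM in C1 and C2, 287 and 375 CPM in D1 and D2, 87.8 and 147 CPM in B1 and B2, and 14.1 to 41.2 CPM in E and A. It was 1 of 4 of the 15 in which both C libraries lay above all others (log2 fold change 2.79, SE 0.26, edgeR adjusted p = 0.00027). Aqp8, a water channel of the aquaporin family, was another, at 741 and 565 CPM in C against 317 and 350 CPM in D, 180 and 353 CPM in B and 43.3 to 76.4 CPM in E and A (2.34, SE 0.22, edgeR adjusted p = 0.00027). Gsta2, a glutathione transferase, had 143 and 109 CPM in C, 75.6 and 81.2 CPM in D and at most 42.5 CPM elsewhere. Its reads and those of Gsta1, 88334 bases away on chromosome 9 and also higher, may be shared, since the copies are alike and the counting step is not given.

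Other genes of this kind were as high in D as in C. Ndrg4, a member of the NDRG family, had 291 and 417 CPM in C1 and C2 and 338 and 397 CPM in D1 and D2, against 13.7 to 85.3 CPM in the other 6 libraries. Pcyt1b, an enzyme of phosphatidylcholine synthesis, had 68.1 and 76.2 CPM in C and 80.0 and 66.9 CPM in D, and 3.46 to 28.2 CPM elsewhere. In both, C and D overlapped and lay above the other 6 libraries. Their log2 fold changes were 2.60 and 2.25 (SE 0.22 for both). Apcdd1, an inhibitor of Wnt signalling, was at 47.4 CPM in C1 and 127 CPM in C2, on either side of the 114 and 98.6 CPM of D1 and D2, and at most 20.1 CPM in the others. Frmpd1 and Slc13a2, a sodium-coupled transporter of dicarboxylates, were higher by 2.40 and 2.41 on the log2 scale, and both overlapped with D.

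A second set was high in B and C and low in D. Ptpn7, a protein tyrosine phosphatase, was at 157 and 86.5 CPM in C1 and C2 and at 61.0 and 165 CPM in B1 and B2, but at 2.58 and 2.56 CPM in D1 and D2. E lay at 9.19 and 4.60 CPM and A at 37.0 and 54.2 CPM. C overlapped with B only (log2 fold change 2.80, SE 0.33, edgeR adjusted p = 0.000829). On chromosome 1, Ptpn7 (plus strand) and Ptprv (minus strand) lie head to head, with 106 bases between them. Ptprv was also higher (1.06, SE 0.26) but was lost without any 1 of B1, C1, C2, D1, D2, E1 or E2. Ptk2b, a calcium-sensitive tyrosine kinase of the focal adhesion kinase family, reached 128 and 102 CPM in C, 46.6 and 98.9 CPM in B and 6.49 to 21.8 CPM in the other 6 libraries. Both C libraries were above all others for Ptk2b (2.48, SE 0.26). In the NANOS2 KO, Ptpn7 had a median of 1.20 CPM, whereas Ptk2b had 145 CPM. The NANOS2 KO values were scaled separately from the sorted libraries, so levels set across the 2 tables are not a comparison of size.

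**Figure D3:**
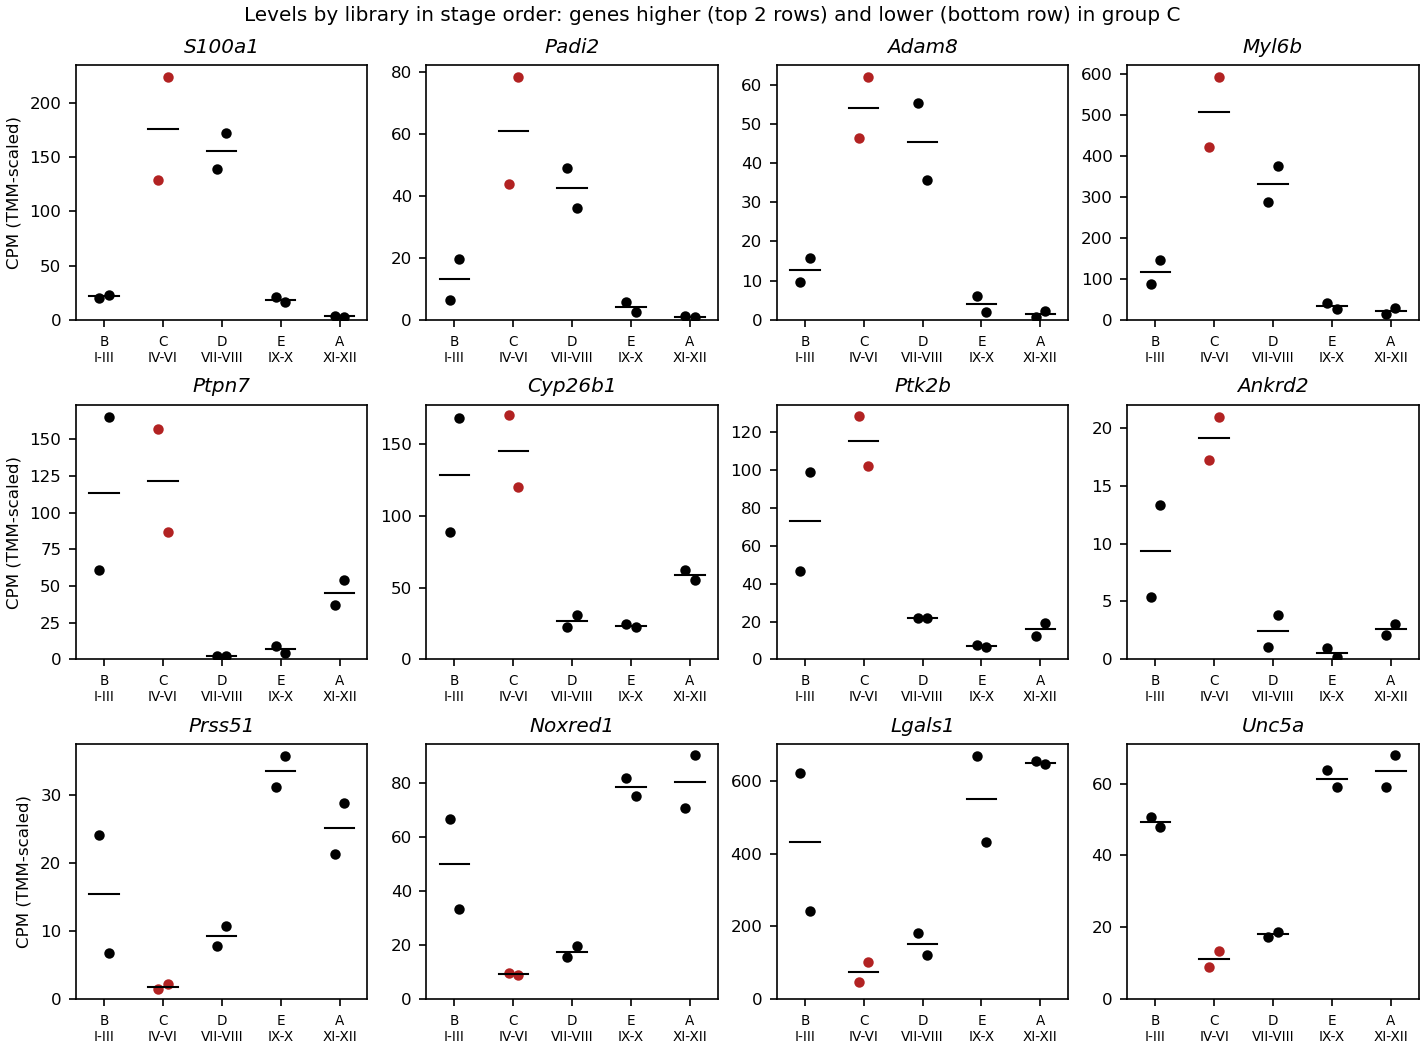
Level in each library (points, CPM scaled by TMM, axes from 0) and group mean (bars) in stage order from B to A for 12 genes, with group C in red. S100a1, Padi2, Adam8 and Myl6b are high in C and D, Ptpn7, Cyp26b1, Ptk2b and Ankrd2 are high in B and C, and Prss51, Noxred1, Lgals1 and Unc5a are low in C, with D nearest to it.

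In 16 of the 280 higher genes the mean of C was at least 2-fold above the mean of each other group. None of the 16 passed against B or against D by itself. The smallest edgeR adjusted p was 0.117 against B (Hsd3b1) and 0.068 against D (Ankrd2). Of all 280, 6 also passed as higher against B, 18 against D, 238 against A and 252 against E. The 8 of the 16 named here were chosen after their values were seen. Gmip was lost without C1 or E2, Serpina3b without C2, and Slc40a1 without C1, C2, D1 or E2, and the other 5 passed with any 1 library left out. Ankrd2, an ankyrin-repeat protein known from striated muscle, had 17.2 and 20.9 CPM in C1 and C2, 5.35 and 13.3 CPM in B1 and B2 and at most 3.84 CPM in the other 6. Shf, an adaptor protein, had 83.2 and 61.2 CPM in C against 18.7 to 32.8 CPM in B and D and 7.04 to 14.1 CPM in E and A. Ly6c1, a lymphocyte antigen 6 protein that endothelial cells also express, had 23.5 and 25 CPM in C and at most 9.99 CPM elsewhere. Nkpd1 and Gmip were at 33.4 and 22.2 CPM and at 26.7 and 19.1 CPM in C, and reached at most 13.3 and 11.8 CPM elsewhere. Genes of lower level were Serpina3b, a serine protease inhibitor, at 5.97 and 7.18 CPM in C and at most 1.61 CPM elsewhere, and Slc40a1, the iron exporter ferroportin, at 10.2 and 7.5 CPM in C and at most 4.87 CPM elsewhere. Hsd3b1, a steroid dehydrogenase best known from Leydig cells, had 30 and 22 counts (10.5 and 6.87 CPM) in C, at most 3.69 CPM elsewhere and 0 counts in both libraries of E. Its edgeR adjusted p was 0.0012. In the NANOS2 KO it ran from 208 to 475 CPM, in whole testis, which holds Leydig cells.

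Of the Leydig markers, Hsd3b6, Insl3 and Lhcgr had no count in C1 or C2, but 2 markers of the list were at 0 in all 10 libraries. The 8 Leydig markers summed to 27.2 and 36.9 CPM in C against 14 to 50.7 CPM in the others. Without Star, the list, which includes Hsd3b1 itself, summed to 11.24 and 14.01 CPM in C1 and C2. This sum was 2.10 to 7.24 CPM in A, B and E and 11.91 and 20.91 CPM in D1 and D2. Of the 4 Leydig genes tested, 3 lay above 0, Hsd3b1 among them, with a median log2 fold change of 0.29. The part of Leydig RNA in the level of Hsd3b1 was not tested.

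The genes that fell included serine proteases of the PRSS family. Of 20 PRSS genes tested, 5 fell, 1 rose and 14 did not pass, with a median log2 fold change of -0.41. Prss52 was at 1.40 and 2.81 CPM in C1 and C2 (4 and 9 counts), 3.89 and 29.4 CPM in B2 and B1, 11.4 and 21 CPM in D1 and D2 and 23.1 to 67.4 CPM in A and E. Both C libraries lay below the other 8 (log2 fold change -3.56, SE 0.70, edgeR adjusted p = 0.0173), and the call was lost without C1 (edgeR adjusted p = 0.187) and without C2 (edgeR adjusted p = 0.0758). Prss51, its neighbour, had 1.40 and 2.19 CPM in C against 6.81 to 35.8 CPM in the other 8 (-3.33, SE 0.55, edgeR adjusted p = 0.00732), and was lost without C1 (edgeR adjusted p = 0.0909). Prss55 had 24.9 and 18.7 CPM in C and 19.9 to 122 CPM elsewhere, and Prss58 had 17.6 and 10.9 CPM in C, above the 8.85 and 6.92 CPM of D1 and D2. Prss37, a protein needed for sperm to pass the oviduct, had 3.16 and 11.6 CPM in C and 8.11 to 129 CPM elsewhere. In Prss37, Prss55 and Prss58 group C thus overlapped with others. Prss37, Prss55 and Prss58 were lost without C1 and without C2, Prss58 also without E1, and Prss37 also without D1, D2, E1 or E2. Prss12, neurotrypsin, went the other way, at 15.1 and 15 CPM in C and 15.5 and 16.4 CPM in D (1.94, SE 0.33), and was lost without C1 (edgeR adjusted p = 0.0606).

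Prss55, Prss51 and Prss52 lie side by side on chromosome 14 (GRCm38), at 64075438 to 64090162, 64086234 to 64097678 and 64104286 to 64113755. The first and the second overlap on opposite strands, and their reads may have been shared, since whether the counting used strand is not given. All 3 were at a median of 0 CPM in the NANOS2 KO.

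Among the 12 named genes with the largest falls, 11 had both C libraries below all others, a pattern that picking by the fall favours. A median of 0 CPM in the NANOS2 KO was found in 9 of the 12. It was found in 36.6% of all lower genes and 10.8% of those not called. Noxred1, a predicted oxidoreductase, was the 1 of the 12 that passed in each fit with a library left out. It had 9.48 and 9.06 CPM in C1 and C2, 15.5 and 19.7 CPM in D1 and D2, 66.9 and 33.4 CPM in B1 and B2 and 70.8 to 90.4 CPM in E and A (-2.39, SE 0.34, edgeR adjusted p = 0.00257). Lgals1, the galactose-binding lectin galectin-1, was at 48.1 and 102 CPM in C, 183 and 121 CPM in D, 624 and 244 CPM in B1 and B2 and 433 to 671 CPM in E and A (-2.38, SE 0.41, edgeR adjusted p = 0.00897). Without C1 its edgeR adjusted p was 0.109. Hils1, a linker histone of spermatids, had 23.2 and 65.3 CPM in C and 96.6 to 421 CPM elsewhere (-2.33, SE 0.45), also lost without C1 (edgeR adjusted p = 0.168). Cmbl, a hydrolase, Dab1, a cytoplasmic adaptor of the reelin pathway, and Actrt3 and Trp53tg5 fell by 2.85, 2.38, 2.44 and 2.46 on the log2 scale, all lost without C1. Dab1 and Actrt3 were also lost without C2, and Dab1, Actrt3 and Trp53tg5 without D2, E1 or E2, Dab1 and Trp53tg5 also without D1 and Actrt3 without B1.

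Of 6 Cypt genes tested, which encode small basic proteins of spermatids, 4 fell and the median log2 fold change was -2.39. This family was picked after its values were seen, and its members are near copies whose reads may be shared. Cypt1 had 6.32 and 17.8 CPM in C1 and C2 and 19.5 to 145 CPM elsewhere, and Cypt12 had 7.02 and 35.9 CPM in C and 40.5 to 284 CPM elsewhere. C1 was the lowest library for both, and both were lost without C1, Cypt12 also without D1, D2, E1 or E2. Across the 101 genes that fell, C2 was more than 2-fold above C1 in 23 (22.8%) and C1 above C2 in 0, against 9.57% and 5.55% of all genes tested.

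Unc5a, a netrin receptor, and Sowahd fell too and passed with any 1 library left out. Unc5a had 8.78 and 13.4 CPM in C, 17.3 and 18.7 CPM in D and 48.0 to 68.0 CPM in B, E and A (-1.95, SE 0.28, edgeR adjusted p = 0.00285). Sowahd had 27.4 and 26.6 CPM in C, 52.3 and 47.1 CPM in D and 73.6 to 181 CPM in B, E and A (-2.0, SE 0.30, edgeR adjusted p = 0.00365).

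Lists of genes by function are described by their counts and medians, beside 1.95% higher and 0.705% lower among all genes tested. Where 1 of 18 to 28 genes was called, the share is near that background and is no result about the list. Of 28 Sertoli core genes, 1 rose and 0 fell (median -0.00). The 1 was Rhox5, an X-linked homeobox gene that androgen drives in Sertoli cells, at 551 and 663 CPM in C1 and C2, 547 and 797 CPM in D1 and D2 and 44.0 to 157 CPM in the other 6 libraries (1.88, SE 0.22, edgeR adjusted p = 0.000829). C overlapped with D alone. Of 9 androgen-responsive genes 2 rose, Rhox5 and Gpd1 (1.84, SE 0.22), a glycerol phosphate dehydrogenase at 648 and 712 CPM in C and at most 544 CPM elsewhere, with a list median of 0.26. Of 18 retinoid genes 1 rose: Cyp26b1, which breaks down retinoic acid, had 170 and 120 CPM in C, 88.8 and 168 CPM in B and 22.4 to 62.4 CPM in the other 6 (1.63, SE 0.24). It was lost without C1 (edgeR adjusted p = 0.0799).

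Cytoskeletal genes gave 5 rises among 28 tested of an actin and myosin list, with 0 falls and a median of 0.20: Myl6b, Actn3, Mical2, Svil and Tpm1. Tpm1, named because the count is small, was lost without any 1 of B1, C1, D1, D2, E1 or E2. Mical2, an actin-oxidising enzyme, had 445 and 454 CPM in C1 and C2, 248 and 449 CPM in B1 and B2, 214 and 210 CPM in D and 31.8 to 160 CPM in E and A (1.68, SE 0.23, edgeR adjusted p = 0.00193). Actn3, an actin cross-linker of the alpha-actinin family, had 138 CPM in C1 but 500 CPM in C2, with 553 and 701 CPM in D and 12.6 to 128 CPM in the other 6, and was lost without C2 (edgeR adjusted p = 0.163). Svil, the membrane-cytoskeleton linker supervillin, was lost without C1 (edgeR adjusted p = 0.1). None of 20 junction genes passed in edgeR (median -0.17), with 3 at an unadjusted p under 0.05, 3 passing in DESeq2 and 1 in limma. Espn, an actin bundler of ectoplasmic specialisations, was at 1298 and 1226 CPM in C, between the 380 and 457 CPM of D and the 1667 and 2018 CPM of B, and its difference from the mean of the others did not pass (0.22, SE 0.19).

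Iron and heme genes had 4 rises and 1 fall among 14 (median -0.06). Tmprss6, a protease that acts on iron regulation, rose by 2.18, Slc40a1 by 2.28, Alas2, the first enzyme of heme synthesis in red cells, by 1.38 and Ftl1, ferritin light chain, by 1.18, and Steap3, an iron reductase, fell by 2.76 on the log2 scale. Ftl1 was at 213 and 229 CPM in C1 and C2 and at most 179 CPM in the other 8. Alas2 was at 686 and 448 CPM in C, 550 and 953 CPM in B, 489 and 598 CPM in A and only 37.2 and 31.5 CPM in D. Its mean was 567 CPM in C, against 373 CPM for the mean of the 4 other group means. Tmprss6 was lost without C2, Alas2 without C1 or D2, Ftl1 without C1, C2 or E2 and Steap3 without C1, C2 or E1. In the glutathione list 2 of 18 rose, Gsta1 and Gsta2, and Gsta3 fell (median 0.05). Gsta3 had 4.21 CPM in C1 and 15.9 CPM in C2, on either side of B at 15 and 14.3 CPM, against 60.5 and 70.0 CPM in D, and was lost without C1 (edgeR adjusted p = 0.25) and without B1, D1, D2, E1 or E2.

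In several metabolic and signalling lists 1 gene rose, which in the longer ones is near the 1.95% of all genes tested. These were Slc16a3, a lactate exporter (1 of 21 glycolysis and lactate genes, median 0.00), Pcyt1b (1 of 22 lipid droplet and choline genes, median 0.07), Tfeb, a master regulator of lysosome genes (1 of 25 lysosome and phagocytosis genes, median -0.03), and Aqp8 (1 of 5 aquaporins, median -0.35). Slc16a3 was lost without C2, and Tfeb without C1, E1 or E2. In the same way Padi2 was the 1 of 4 PADI genes, Adam8 the 1 of 9 somatic ADAM genes and Ptpn7 the 1 of 13 PTPN genes to rise, while S100a1 and S100b were 2 of 7 S100 genes. S100b had 14.4 and 13.4 CPM in C, 22.9 and 19.2 CPM in D and at most 2.15 CPM elsewhere (3.24, SE 0.41). It overlaps Dip2a on chromosome 10, which was also higher but lost without C2, E1 or E2. Wnt6, a secreted Wnt ligand, was the 1 of 3 niche factors to rise, at 100.1 and 100.3 CPM in C1 and C2 and 28.3 to 62.3 CPM in the other 8 (1.33, SE 0.20, edgeR adjusted p = 0.00342). Mcm3, a DNA replication helicase subunit, was the 1 of 21 cell cycle genes to rise, a list with 19 members above 0 and a median of 0.45, and its call was lost without any 1 of B1, C1, D1, E1 or E2. Tap1, a peptide transporter of antigen presentation, was the 1 of 11 MHC class I and interferon genes to fall (-1.51, SE 0.37, edgeR adjusted p = 0.0494), lost without any 1 of B1, C1, C2, D1, D2, E1 or E2.

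No member passed in edgeR among 11 proteases and inhibitors, 8 Notch genes, 10 genes of follicle-stimulating hormone, inhibin and AMH, 16 immediate early and stress genes, 9 ER stress genes and 13 clock genes, with medians from -0.19 to 0.46. At an unadjusted p under 0.05 stood 2, 1, 2, 0, 0 and 1 of them in this order, DESeq2 called 1 clock gene and none of the others, and limma called none. All 13 mitochondrial genes were below 0 with a median of -0.67, and none passed in edgeR, DESeq2 or limma, with 0 at an unadjusted p under 0.05. Notch1 shows how far C1 and C2 differed in some genes: it was at 14 CPM in C1, beside the 5.35 and 13.9 CPM of B, and at 85.6 CPM in C2, below the 134 and 101 CPM of D.

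**Figure D4:**
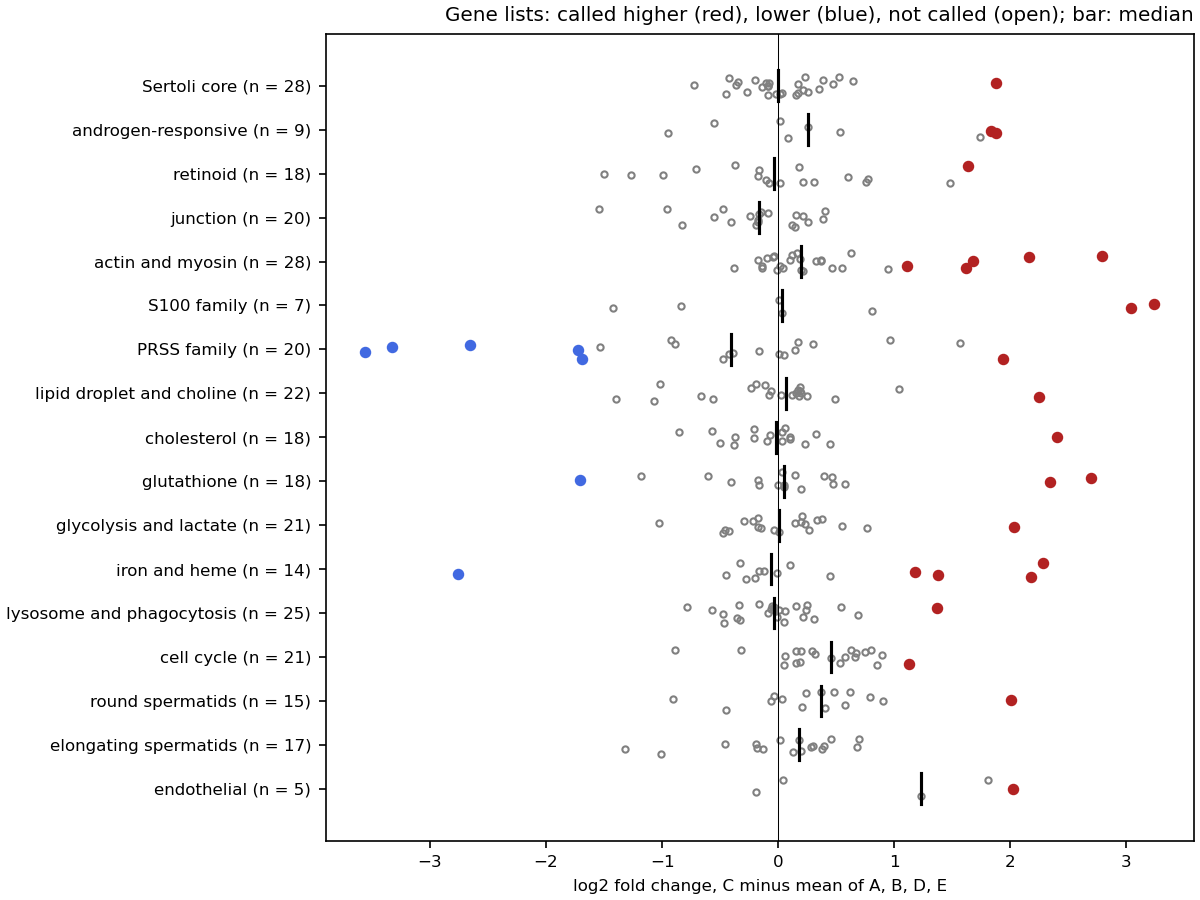
Log2 fold change of group C against the mean of the 4 other groups (x axis) for the tested members of 17 gene lists (rows, 1 point per gene). Filled points passed the test (red higher, blue lower), open points did not, and vertical bars give each list's median; the medians lie between -0.41 (PRSS family) and 1.23 (endothelial).

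Markers of other cells were measured beside these changes, and their part in them was not tested. In bulk samples, fewer cells of a type and less RNA per cell cannot be told apart. Of the germ cell lists, 0 of 14 spermatogonial, 0 of 17 spermatocyte and 0 of 17 elongating spermatid genes passed in edgeR, and 1 of 15 round spermatid genes rose, with medians of 0.37, 0.05, 0.18 and 0.37. In the first 3 lists 2, 4 and 6 genes had an unadjusted p under 0.05, DESeq2 called 1, 0 and 2, and limma 1, 0 and 0. The round spermatid gene was Catsper3, a sperm calcium channel subunit, at 16.1 and 30.3 CPM in C and 12.2 and 32.0 CPM in D (2.0, SE 0.45), lost in limma and without any 1 of B1, C1, C2, D1, E1 or E2. The summed level of the 15 spermatogonial markers was 444 and 505 CPM in C1 and C2, below the 568 to 909 CPM of the other 8. This gap lay in Uchl1, at 94.3 and 239 CPM in C and 176 to 674 CPM elsewhere: the other 14 markers summed to 350 and 266 CPM in C, within the 161 to 392 CPM of the other 8, and 11 of the 14 tested lay above 0. Spermatocyte markers summed to 2903 and 2080 CPM in C against 1700 to 3634 CPM, and round spermatid markers to 486 and 530 CPM against 261 to 619 CPM. Endothelial markers summed to 27.6 and 36.9 CPM in C against 12.4 to 43.1 CPM, and 1 of 5, Cdh5, the cadherin of endothelial junctions, rose (2.02, SE 0.39) but was lost without C2 (edgeR adjusted p = 0.221), without E2 and in limma. Among the 5 endothelial genes tested 4 lay above 0, with a median of 1.23, beside 0.03 for all genes tested. The endothelial list without Vwf summed to 14.1 and 29.2 CPM against 4.77 to 30.1 CPM. None of 7 peritubular myoid, 3 macrophage, 5 stromal and 1 lymphocyte genes passed in edgeR, DESeq2 or limma, with 2, 0, 4 and 0 at an unadjusted p under 0.05. In this order 6, 1, 4 and 1 of them lay above 0, with medians of 0.29, -0.25, 0.97 and 0.53. Without Fbln1 the stromal list summed to 66.0 and 49.4 CPM in C against 19.7 to 51.2 CPM. Macrophage markers summed to 265 and 221 CPM in C against 148 to 404 CPM, with Cd163, Lyz2, Tyrobp and Itgam at 0 in C, and neutrophil markers to 0.363 and 0.914 CPM. In the blood list Alas2 made up most of the sum, with Hbb-bt and Slc4a1 at 0 in C, 1 of them in all 10 libraries.

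The levels of called genes in testes without germ cells are given here with no test of the difference between gene groups. A mean of at least 1 CPM over the 18 NANOS2 KO libraries was reached by 62 of the 101 lower genes (61.4%, 95% Clopper-Pearson interval 51.2 to 70.9), 241 of the 280 higher genes (86.1%, 81.5 to 89.9) and 85.4% of the 13950 genes not called (84.8 to 86.0). These intervals treat genes as independent and cover counting error only. The median over the NANOS2 KO libraries was 0 CPM in 37 of the lower genes (36.6%), 26 of the higher (9.29%) and 10.8% of those not called. Of the higher genes named above, Cyp26b1 (median 393 CPM) and Gpd1 (301 CPM) had high levels in the NANOS2 KO. Tnp1 and Prm1, genes of spermatids, were at a median of 0 CPM there. When only genes that reached this level in the NANOS2 KO were tested, 241 were higher and 84 lower.

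**Figure D5:**
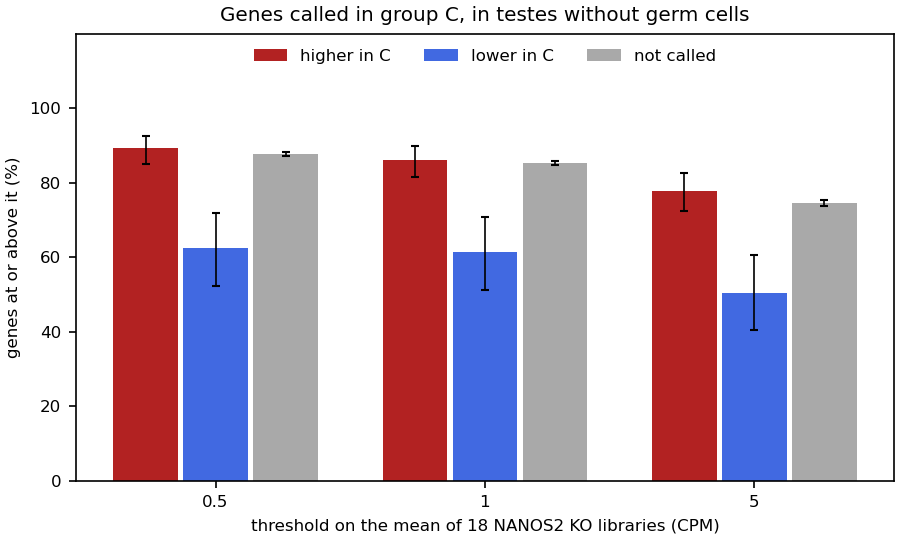
Percentage of genes (y axis, from 0) whose mean over the 18 NANOS2 KO libraries reached 0.5, 1 or 5 CPM (x axis), for genes higher in C (red), lower in C (blue) and not called (grey); error bars are 95% Clopper-Pearson intervals. At 1 CPM the bars stand at 86.1, 61.4 and 85.4%.

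Against single groups, which all share C1 and C2, group C had most calls against E and A. Against A, stages XI-XII, 370 genes (2.58%) were higher and 233 (1.63%) lower, 603 in all (4.21%). S100a1 was higher by 5.73 (SE 0.41), Ndrg4 by 4.48 (SE 0.36) and Pcyt1b by 4.32 (SE 0.36) on the log2 scale, and Noxred1 fell by 3.12 (SE 0.38), Unc5a by 2.51 (SE 0.32) and Sowahd by 2.60 (SE 0.34), these being the 3 smallest p in each direction. The count dropped to 363 without A1, 392 without C1, 337 without C2, 358 without E1 and 362 without E2. Against E, stages IX-X, 393 genes (2.74%) were higher and 287 (2%) lower, 680 in all (4.74%), with the smallest p, a predicted gene left out, for Aqp8 (3.82, SE 0.35), Ndrg4 (3.58, SE 0.34) and Mical2 (3.54, SE 0.35). Noxred1 (-3.08, SE 0.38), Unc5a (-2.46, SE 0.32) and Dnajb7 (-2.77, SE 0.36), a DnaJ chaperone, had the smallest p among the falls. The count against E dropped to 18 without E2, 61 without E1 and 229 without C1.

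The neighbouring stages gave fewer calls. Against B, stages I-III, 6 genes (0.0419%) were higher and 2 (0.014%) lower, 8 in all (0.0558%). The 6 were S100a1 (3.02, SE 0.35, edgeR adjusted p = 0.0162), Ndrg4 (2.40, SE 0.33), Actn3 (3.78, SE 0.55), Rhox5 (2.21, SE 0.32), Tmem140 (4.26, SE 0.63) and Ppp1r16b (1.94, SE 0.31), and the 2 were Unc5a (-2.14, SE 0.32) and Noxred1 (-2.42, SE 0.38). Tmem140 and Ppp1r16b are named because the count is small. No gene passed in edgeR without any 1 of B1, C2, D1, D2, E1 or E2, with 745 to 1741 genes at an unadjusted p under 0.05, while 80, 79 and 82 genes passed without A1, A2 and C1. Without B2, 1 gene was higher and 8 lower, 2 of these 9 being among the 8 above.

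Against D, stages VII-VIII, 88 genes (0.614%) were higher in C and 2 (0.014%) lower, 90 in all (0.628%). Hdc, which makes histamine, had 376 and 235 CPM in C1 and C2 and 23.2 and 30.7 CPM in D1 and D2 (log2 difference 3.49, SE 0.36, edgeR adjusted p = 0.00194). Ptpn7 was higher by 5.55 (SE 0.61). Prm1, the sperm chromatin protein protamine 1, had 1066 and 1539 CPM in C and 131 and 184 CPM in D (3.05, SE 0.32), and 7 of 17 elongating spermatid markers were higher against D, whose 2 libraries had the lowest sums of these markers (4157 and 5843 CPM). The part of these cells in the 88 calls was not tested, and when only genes that reached 1 CPM in the NANOS2 KO were tested, 33 were higher and 1 lower. The 2 lower genes were Gsta3 (-2.68, SE 0.47, edgeR adjusted p = 0.025) and Tbc1d10c (-2.70, SE 0.54), the latter named because the count is small. No gene passed without D1 or without D2 in edgeR, with 1115 and 1390 at an unadjusted p under 0.05, 24 passed without C1, 188 and 189 without A1 and A2, and 27 and 31 without E1 and E2. Without C2, 155 genes were higher and 237 lower (392 in all), so the split of 88 to 2 turned round. DESeq2 gave 245 higher and 64 lower genes against D.

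By position in GENCODE M21, 19 of the 273 higher genes placed (6.96%) and 8 of the 95 lower genes placed (8.42%) were on the X chromosome, against 3.88% of the genes not called. These shares were not tested, and near copies count in them as separate genes. Among the genes that fell these are Cypt1, Cypt2 and Cypt15, and a run of adjacent clone and predicted genes was among those that rose. Beside Rhox5, Pcyt1b, Alas2 and Sowahd the X-linked genes include the neighbours Nudt10 and Nudt11. They lie 113586 bases apart, their reads may be shared, and both were lost without C1 or E2. Serpina3a and Serpina3b, 6100 bases apart on chromosome 12, were other neighbours called higher, with unlike patterns. Serpina3a was as high in D (mean 443 CPM) as in C (mean 441 CPM), and Serpina3b had a mean of 6.58 CPM in C and 0.553 CPM in D. These neighbours were chosen after their values were seen.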

How the data were processed

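Polyadenylated RNA was sequenced on an Ion Proton, per the labels' protocols; the labels speak of sorted germ cells in the extraction step, while sorted RFP-positive Sertoli cells are the source named elsewhere. Per the submitters' processing notes, Bowtie, TopHat and Cufflinks were used with mm10; the sources used here give no version, counting step, strand setting or annotation. The authors deposited raw counts per gene for the sorted libraries. Their NANOS2 KO table, deposited as FPKM by name, holds CPM: columns have 1 common total and low values are whole reads of 1336743 to 4370136 (at least 99.99% of values whole within 0.05), with no gene length in them. A count test on those reads was not run, since these libraries entered no test. Of the gene rows, 27 carry symbols turned into dates and are not named.

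Counts were filtered (filterByExpr, by group), scaled (TMM) and tested with edgeR 4.0.16 in R 4.3.3 in 1 fit over 5 groups. Contrasts set C against the mean of the others, taken on the log2 scale, and against each. A gene was called at an adjusted p (Benjamini-Hochberg, over all genes tested) under 0.05. The biological coefficient of variation was 0.268. The fit was also run on simulated counts, in which changes were set in C only and the other groups were alike, unlike the real groups. Log2 CPM used a prior count of 2. Replicates of a group differed beyond sampling noise (chi-square per degree of freedom 10.9 to 33.7). Alternatives were RLE scaling, no filter, a mean of at least 5 CPM, DESeq2 1.42.0, limma 3.58.1 on log2(CPM + 1), the replicate number as a block, genes present in the NANOS2 KO, the other 8 libraries as 1 group, and each library left out.

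Members, gene lists and the naming rule were chosen with earlier results of these data known. The rule names the 3 markers, the called genes with the 15 largest rises and 12 largest falls whose log2 CPM averaged 4 or more (no clones, predicted, ribosomal or small RNA genes), all called members of 5 protein families, up to 3 called members per direction of each other list or else its 2 most expressed, and the 3 smallest p per direction of each pair; some are not described. Such largest folds are prone to overstatement. Of tested symbols, 94.9% were placed in GENCODE M21 (GRCm38, the assembly of mm10).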

Additional observations from a re-analysis of the deposited data

How the results depend on the processing

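The main comparison gave 381 calls (280 higher, 101 lower) and 369 with RLE scaling (262 and 107), 323 at a mean of at least 5 CPM, 380 in limma (205 and 175), 561 with the replicate block (393 and 168) and 325 among genes present in the NANOS2 KO. It gave 649 in DESeq2 (357 and 292), 988 with no filter (580 and 408), and 0 with the other 8 libraries as 1 group, where the stage differences among them enter the spread, with 1308 genes at an unadjusted p under 0.05. Leaving out 1 library gave 161 (without C1) to 598 (without A2) calls, with 175 and 176 without E2 and E1, and 237, 243 and 237 without C2, D1 and D2. No gene called in the main comparison changed sign in any of these fits. Against A the count was 603, with 1273 for no filter, 957 in DESeq2, 923 with the replicate block and 337 to 662 when 1 library was left out. Against B it was 8, with 315, 204 and 39 in the same order and 0 to 82 when 1 was left out; the 6 fits with 0 had 745 to 1741 genes at an unadjusted p under 0.05. Against D it was 90, with 617, 309 and 178, 34 among genes present in the NANOS2 KO, and 0 to 392 (155 higher and 237 lower without C2). Against E it was 680, with 1376 for no filter and 18 to 980. The causes of these moves were not tested. Whether the replicate numbers pair the libraries cannot be told from these values. Correlations of same-numbered deviations ran from -0.39 to 0.48, with 4 of 10 pairs of groups over 0.1. The block removed no call of the main comparison and raised their number from 381 to 561. At 5 CPM the NANOS2 KO shares were 77.9% (higher), 50.5% (lower) and 74.6% (not called), and at 0.5 CPM that of genes not called was 87.8%. Of 1508 values for single named genes in the main comparison, 1354 kept their side of the threshold, 145 fell short of it and 9 newly passed. In 25 of them, from 13 genes, the sign changed, all in genes called in neither fit. With 1 library of a group left, that library was assumed to vary like the other groups. In genes of few counts, such as Prss52 (4 and 9 counts in C1 and C2), counting error limits the precision.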
